A study of Mus musculus with 8 samples.

Results

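The genes described here encode the paired forms of cytochrome c oxidase subunits: *Cox4i1* and *Cox4i2* for subunit 4, *Cox6a1* and *Cox6a2* for subunit 6A, *Cox7a2* and *Cox7a1* for subunit 7A, and *Cox8a* and *Cox8b* for subunit 8. They were chosen by name, as 8 genes of which 7 are analysed here, out of 38305 genes with values. *Cox4i1* was not analysed here, so that no ratio could be formed for subunit 4. RNA was from inguinal white adipose tissue (ING WAT) of C57BL/6j mice, 4 at postnatal day 21 (PN21, the day of weaning; m1, m49, m138 and m145) and 4 at PN98 (young adults; m35, m106, m114 and m125). Each mouse is 1 sample. Neither the labels nor the methods give the diet of the sequenced PN98 mice, of which the study fed some a control and some a western style diet, or says whether the PN21 animals sequenced were male or female. The Y-linked gene *Ddx3y* was at 18.1 to 22.1 FPKM at PN21 and 19.9 to 25.9 FPKM at PN98, so that Y-linked RNA was present in every mouse. *Xist* was at 0.247 to 0.832 FPKM at PN21 and did not exceed 0.00704 FPKM at PN98.

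Cytochrome c oxidase, or complex IV, is the last complex of the respiratory chain. It passes electrons from cytochrome c to oxygen and pumps protons across the inner mitochondrial membrane. Its catalytic core is encoded by the mitochondrial genome, and a shell of nuclear-encoded subunits surrounds this core. For some of these nuclear subunits mammals have a ubiquitous form and a form that is restricted to certain tissues. *Cox6a2*, *Cox7a1* and *Cox8b* are the forms of heart and skeletal muscle, *Cox7a1* and *Cox8b* are also high in brown adipose tissue and are used as brown or beige fat markers, and *Cox4i2* is known from lung and as a gene induced by low oxygen. Inguinal fat can hold adipocytes with brown features, and a dissected depot can carry along muscle, lymph node and vessel cells. In such bulk RNA, fewer cells of a type and less RNA per cell cannot be told apart.

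The promoters of the subunit 7A and 8 genes are shown first, because in these 2 pairs the balance between the restricted and the ubiquitous form differed between the ages. Capitals mark CpG dinucleotides. The stretches lie upstream of the annotated start (RefSeq, GRCm38.p6), read 5′ to 3′ in the direction of the gene, and leave out bases that GENCODE places in an exon.
Cox7a1, restricted, chr7:30183921-30184143, plus strand: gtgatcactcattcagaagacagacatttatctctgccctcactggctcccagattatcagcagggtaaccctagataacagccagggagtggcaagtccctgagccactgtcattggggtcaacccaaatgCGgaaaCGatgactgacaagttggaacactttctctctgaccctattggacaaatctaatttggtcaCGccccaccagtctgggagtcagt
Cox7a2, ubiquitous, chr9:79759879-79760103, minus strand: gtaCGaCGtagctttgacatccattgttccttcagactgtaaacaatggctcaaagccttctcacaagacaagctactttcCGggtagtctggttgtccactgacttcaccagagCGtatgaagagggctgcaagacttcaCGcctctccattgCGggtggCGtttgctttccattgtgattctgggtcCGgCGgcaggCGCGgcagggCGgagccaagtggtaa
Cox8b, restricted, chr7:140900447-140900696, minus strand: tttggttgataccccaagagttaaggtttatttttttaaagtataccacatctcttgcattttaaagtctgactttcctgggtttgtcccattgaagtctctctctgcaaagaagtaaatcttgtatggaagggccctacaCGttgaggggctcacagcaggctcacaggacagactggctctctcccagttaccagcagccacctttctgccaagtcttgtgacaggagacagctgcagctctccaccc
Cox8a, ubiquitous, chr19:7217617-7217866, minus strand: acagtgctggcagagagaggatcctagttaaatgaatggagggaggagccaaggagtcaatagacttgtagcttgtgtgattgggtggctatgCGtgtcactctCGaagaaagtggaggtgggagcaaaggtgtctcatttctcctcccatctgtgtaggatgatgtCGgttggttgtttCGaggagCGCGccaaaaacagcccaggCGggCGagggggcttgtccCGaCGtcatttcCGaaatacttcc

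The restricted forms had fewer CpG in the 250 bases before the start than the ubiquitous form of the same subunit. *Cox7a1* had 4 CpG and *Cox7a2* had 14, counted over all 250 bases. The stretches shown for *Cox7a1* and *Cox7a2* are shorter (223 and 225 bases), so not every counted CpG is shown. *Cox8b* had 1 CpG and *Cox8a* had 11. Over 32851 windows of this length the median was 6 CpG, with quartiles of 2 and 16. The window of *Cox6a1* held 26 CpG. Windows were matched for 5 of the 8 genes, and *Cox4i1*, *Cox4i2* and *Cox6a2* are named only. Searched on both strands, CCAAT was found in *Cox7a1* (2 matches), *Cox8a* and *Cox6a1*, against 33.8% of all windows. TATAAA (12.4% of all windows) and AAGGTCA, a half-site of nuclear receptors such as the estrogen-related receptors (4.08% of all windows), were found in none of the 5 windows. These matches describe letters in the window and were not tested for a relation with expression.

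Levels are given in FPKM, fragments normalised to transcript length and library size, summed over the transcripts of a gene. They can be compared between genes, with the reservation that these transcripts are short (360 bases for *Cox8b* to 727 bases for *Cox4i2*), which makes a level per length sensitive to how the effective length was computed. Only 1 transcript had values for each of *Cox7a1*, *Cox7a2* and *Cox8a*, of 2, 3 and 2 annotated. At PN21 the restricted form *Cox8b* had the highest level, with a mean of 2048 ± 1031 FPKM (SD, n = 4), followed by *Cox6a1* (1448 ± 437), *Cox7a1* (1244 ± 364) and *Cox8a* (922 ± 151). The ranges of neighbouring genes in this order overlapped. *Cox7a2* was lower, at 261 ± 59.4 FPKM, and overlapped with none of the others. *Cox4i2* (9.85 ± 3.68) and *Cox6a2* (3.59 ± 2.5) were far below all of these and overlapped with each other. At PN98 the order was *Cox6a1* (1093 ± 505), *Cox8b* (962 ± 750), *Cox8a* (879 ± 313), *Cox7a1* (334 ± 317), *Cox7a2* (248 ± 105), *Cox6a2* (6.95 ± 5.26) and *Cox4i2* (5.11 ± 2.78). Again every gene overlapped with its neighbour in the order, except *Cox7a2* with *Cox6a2*.

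**Figure D1:**
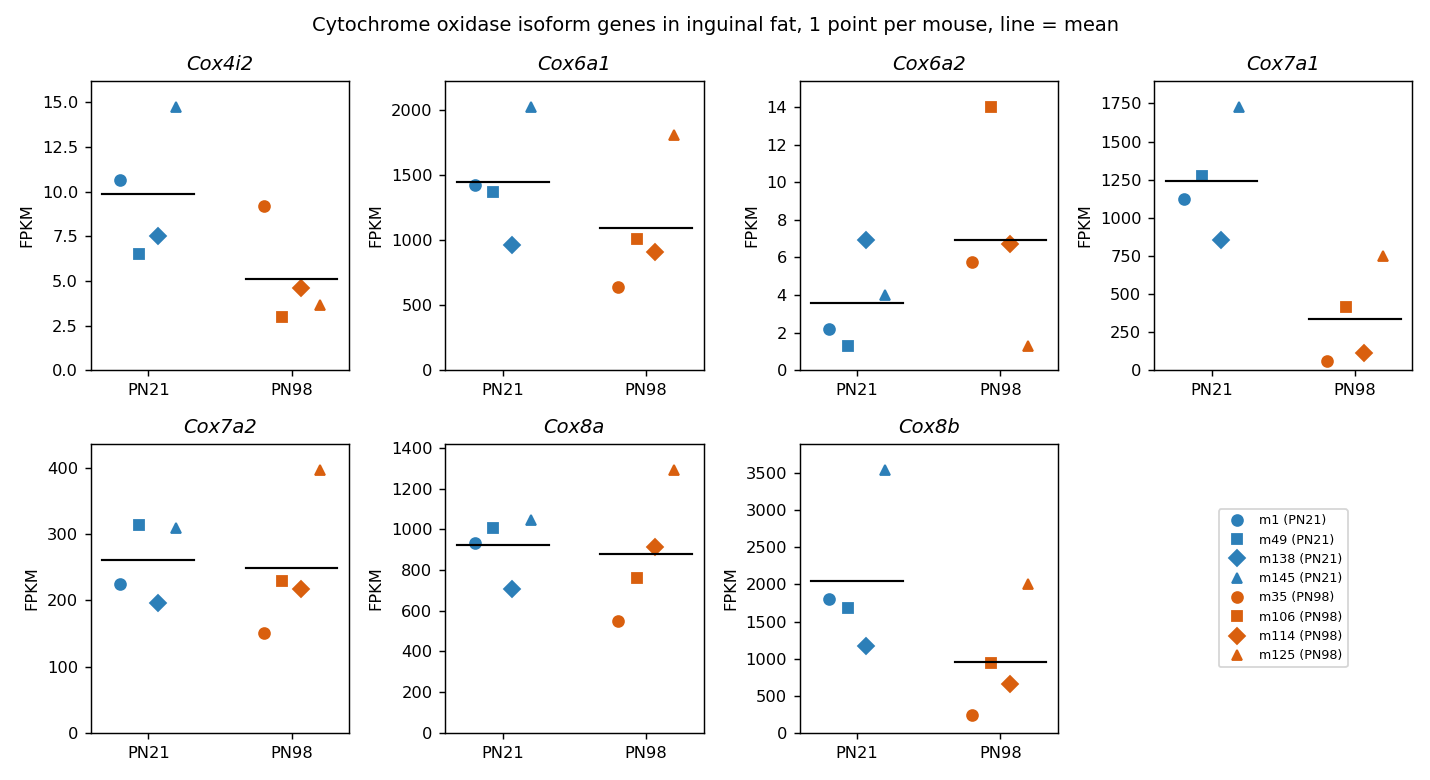
FPKM (y axis, from 0) of the 7 genes in each of 4 PN21 and 4 PN98 mice (x axis), with 1 point per mouse and the mean as a line. *Cox7a1* is the gene in which the ages do not overlap, with PN98 mice at 59.8 to 748 FPKM and PN21 mice at 855 to 1725 FPKM.

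For the comparison of the ages, limma was run on log2(FPKM + 1), as PN98 minus PN21, and p-values were adjusted by the Benjamini-Hochberg method over the 16036 genes with a mean of at least 1 FPKM. Of the 7 genes, 6 were lower and 1 was higher at PN98 in their means, and 0 had an adjusted p under 0.05 in limma, against 5.26% of all genes. Before adjustment, *Cox4i2* and *Cox7a1* (2 of the 7 genes) had a p under 0.05, against 27.2% of all genes. The ages did not overlap for 1 of the 7 genes, against 16.1% of all genes, so that by these counts the group was close to the background. The transcript level gave the same picture, with 0 of the 8 transcripts tested having an adjusted p under 0.05 in limma (1.34% of all transcripts) and 2 of 8, the main transcripts of *Cox4i2* and *Cox7a1*, an unadjusted one (21.7% of all transcripts). The median log2 fold change was −0.46 over the 7 genes and −0.21 over all genes tested. When mice were scaled to equal sums over nuclear genes these medians were −0.19 and 0.01, and with median of ratios scaling −0.24 and −0.03. With either scaling, and also without m35, 3 of the 7 genes were higher and 4 lower. With these scalings the calls over all genes moved from 374 higher and 469 lower to 558 higher and 266 lower, and to 743 higher and 462 lower, respectively. The file holds no counts, so depth is unknown and counting error is not included in these values.

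*Cox7a1* (GRCm38 chr7:30184144-30186078, plus strand) encodes the muscle and brown fat form of subunit 7A. It was at 1121, 1274, 855 and 1725 FPKM in m1, m49, m138 and m145 of PN21, and at 59.8, 415, 113 and 748 FPKM in m35, m106, m114 and m125 of PN98. All PN98 mice were below all PN21 mice. The spread was much wider at PN98, where the highest mouse had 12.5 times the level of the lowest, against 2.02 times at PN21. The log2 fold change was −2.48 (standard error 0.74), which corresponds to a 5.59-fold higher level at PN21, and it did not pass the correction (limma, adjusted p = 0.0909). With array weights (−1.88, adjusted p = 0.0324 in limma) and without PN98 mouse m125 (−3.08, adjusted p = 0.0450 in limma) it passed. Over these and the other alternatives the adjusted p ranged from 0.0324 to 0.199 and the gene was lower at PN98 in all of them.

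*Cox7a2* (GRCm38 chr9:79755361-79759878, minus strand), the ubiquitous form of the same subunit, was at 225, 314, 197 and 309 FPKM in PN21 mice m1, m49, m138 and m145. In PN98 mice m35, m106, m114 and m125 it was at 150, 229, 218 and 397 FPKM. The ages overlapped. Its log2 fold change was −0.13 (standard error 0.31, limma adjusted p = 0.801) as deposited, 0.14 with scaling to nuclear genes and 0.083 with median of ratios scaling, so that its direction depended on the scaling.

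*Cox8b* (GRCm38 chr7:140898945-140900446, minus strand), the muscle and brown fat form of subunit 8, was at 1802, 1676, 1175 and 3540 FPKM in PN21 mice m1, m49, m138 and m145. In PN98 mice m35, m106, m114 and m125 it was at 247, 942, 655 and 2003 FPKM. Of the PN98 mice, m35, m106 and m114 were below every PN21 mouse and m125 was above m1, m49 and m138. The log2 fold change was −1.34 (standard error 0.62, limma adjusted p = 0.20), and the gene was lower at PN98 under all alternatives. Without m35 the log2 fold change was −0.81.

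*Cox8a* (GRCm38 chr19:7215153-7217616, minus strand), the ubiquitous form of subunit 8, was at 935, 1004, 706 and 1044 FPKM in PN21 mice m1, m49, m138 and m145. In PN98 mice m35, m106, m114 and m125 it was at 551, 759, 913 and 1292 FPKM, with the lowest and the highest mouse both at PN98. Its log2 fold change was −0.12 (standard error 0.27, limma adjusted p = 0.790) as deposited, 0.15 with scaling to nuclear genes and 0.094 with median of ratios scaling.

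*Cox6a1* (GRCm38 chr5:115345642-115348981, minus strand) encodes the ubiquitous form of subunit 6A. It was at 1428, 1375, 964 and 2024 FPKM in m1, m49, m138 and m145 of PN21, and at 637, 1013, 911 and 1813 FPKM in PN98 mice m35, m106, m114 and m125. Mouse m145 was highest at PN21 and m125 was highest at PN98, as for *Cox8b* and *Cox8a*. The ages overlapped, and the log2 fold change was −0.46 (standard error 0.35, limma adjusted p = 0.405). It was −0.19 with scaling to nuclear genes and −0.24 with median of ratios scaling. The value was −0.28 without m145, −0.24 without m35 and −0.74 without m125. Its retained-intron transcript held 5.10 to 19.5 FPKM of these sums. Of the 100-base stretches of the main *Cox6a1* transcript, 1.48% were also present in transcripts of another gene, whereas the main transcripts of the other 6 genes shared none.

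*Cox6a2* (GRCm38 chr7:128205435-128206387, minus strand), the heart and skeletal muscle form of subunit 6A, was at 2.17, 1.27, 6.93 and 4.01 FPKM in PN21 mice m1, m49, m138 and m145. In PN98 mice m35, m106, m114 and m125 it was at 5.78, 14, 6.72 and 1.30 FPKM. It was the gene with the higher mean at PN98, but the ages overlapped and m125 was nearly as low as m49. The log2 fold change was 0.67 (standard error 0.60, limma adjusted p = 0.476), on a scale with a pseudocount of 1 that understates changes of such low genes. It was 1.53 with array weights (limma adjusted p = 0.0654), 0.38 without m49, 0.27 without m106 and 1.17 without m125. The deposited row names *Itgad*, whose annotated span covers *Cox6a2* on the other strand, together with *Cox6a2*. *Itgad* itself was at 0.167 to 3.79 FPKM, and whether strand was used in counting is not given in the sources used here.

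*Cox4i2* (GRCm38 chr2:152754173-152765037, plus strand), the restricted form of subunit 4, was at 10.6, 6.53, 7.52 and 14.7 FPKM in PN21 mice m1, m49, m138 and m145. It was at 9.16, 3.0, 4.58 and 3.68 FPKM in PN98 mice m35, m106, m114 and m125. The PN98 mice m106, m114 and m125 were below all PN21 mice, and m35 lay within the range of PN21. The log2 fold change was −0.87 (standard error 0.34, limma adjusted p = 0.158). Without m35 it was −1.14 (adjusted p = 0.0291 in limma), and with array weights −1.15 (adjusted p = 0.0185 in limma). Over all alternatives the adjusted p ranged from 0.0185 to 0.331.

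**Figure D2:**
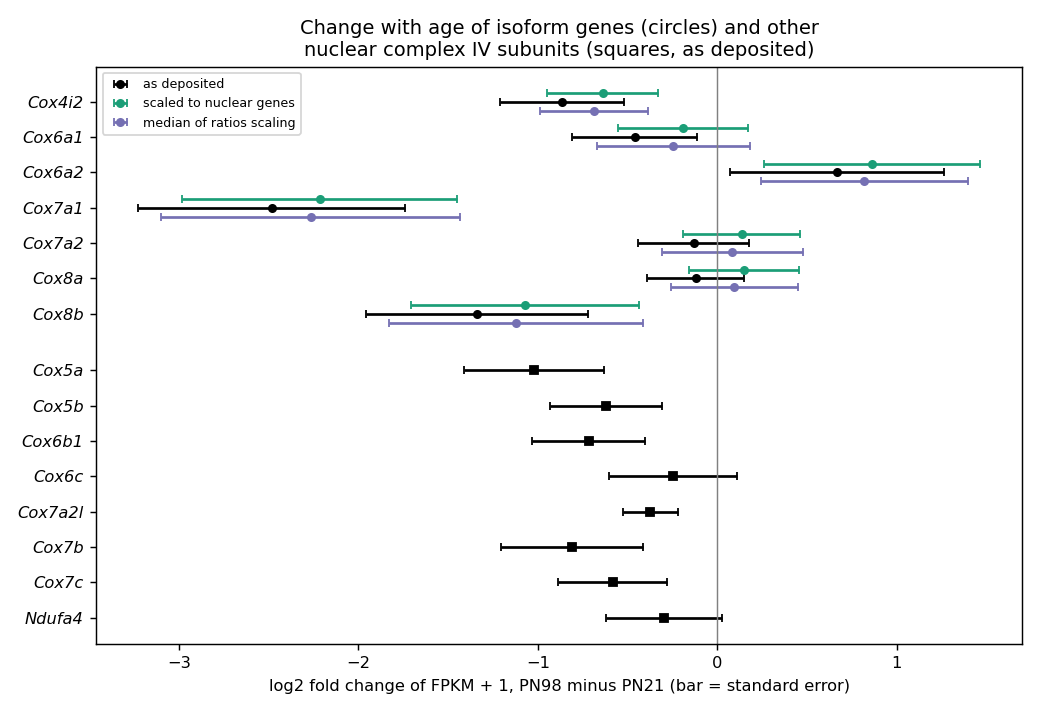
Log2 fold change of FPKM + 1 (x axis, PN98 minus PN21) with its standard error as a bar, for 7 isoform genes under 3 scalings (circles) and 8 other nuclear subunits of complex IV as deposited (squares). *Cox7a1* lies farthest to the left, at −2.48 as deposited, while *Cox7a2* and *Cox8a* lie on either side of 0 depending on the scaling.

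The balance between the forms was then compared within each mouse, where library scaling cancels. The ratio was formed as log2((restricted FPKM + 0.1)/(ubiquitous FPKM + 0.1)), and its mean was compared between the ages by exact permutation (two-sided), enumerating all 70 ways to assign 4 of the 8 mice to PN98, so that 0.0286 is the smallest p this design allows. The p-values of the 3 ratios were adjusted together by the Benjamini-Hochberg method. An adjustment over 4 ratios was planned, but that of subunit 4 could not be formed. The adjusted p-values depend on this number.

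For subunit 7A the restricted form had most of the FPKM at PN21 and a smaller share in each PN98 mouse. The main transcript of *Cox7a1* is shorter than that of *Cox7a2* (393 against 659 bases), as is that of *Cox8b* than *Cox8a* (360 against 550). Shares within a mouse thus carry the reservation on short transcripts given above. *Cox7a1* made up 83.3%, 80.2%, 81.3% and 84.8% of the summed FPKM of both genes in m1, m49, m138 and m145, a spread of 2.04 percentage points (SD). At PN98 it made up 28.5% in m35, 64.4% in m106, 34.2% in m114 and 65.3% in m125. In m35 and m114 *Cox7a2* thus had more FPKM than *Cox7a1*, which was seen in none of the PN21 mice. The PN98 mice m106 and m125 lay between these mice and PN21. The log2 ratio had a mean of 2.23 at PN21 (SD 0.20, n = 4) and of −0.13 at PN98 (SD 1.18, n = 4). The ratio fell by 2.36 on the log2 scale, or 5.13-fold, with no overlap of the ages (exact permutation test, p = 0.0286, adjusted p = 0.0429).

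The summed level of both genes of subunit 7A had a mean of 1505 FPKM at PN21 (SD 415, n = 4) and of 582 FPKM at PN98 (SD 417, n = 4). At PN98 it ran from 210 FPKM in m35 to 1145 FPKM in m125. The latter lay within the PN21 range of 1052 to 2034 FPKM.

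For subunit 8 the change had the same direction. *Cox8b* made up 65.8%, 62.5%, 62.5% and 77.2% of the pair in PN21 mice m1, m49, m138 and m145. At PN98 it made up 30.9% in m35, 55.4% in m106, 41.8% in m114 and 60.8% in m125. The PN98 mice had the same order as for subunit 7A, with m35 lowest and m125 highest, and m125 was close to the lowest PN21 mouse. The log2 ratio had a mean of 1.05 at PN21 (SD 0.49, n = 4) and of −0.17 at PN98 (SD 0.81, n = 4). The ratio fell by 1.22 on the log2 scale, or 2.33-fold, with no overlap of the ages (exact permutation test, p = 0.0286, adjusted p = 0.0429). The summed level of the pair was 1881 to 4584 FPKM at PN21 and 798 to 3294 FPKM at PN98, and the ages overlapped.

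For subunit 6A the ubiquitous form held nearly all FPKM at both ages. *Cox6a2* made up 0.152%, 0.0919%, 0.714% and 0.198% of the pair in PN21 mice m1, m49, m138 and m145. At PN98 it made up 0.900% in m35, 1.36% in m106, 0.732% in m114 and 0.0718% in m125, so that the lowest and the highest mouse were both at PN98. The log2 ratio had a mean of −8.83 at PN21 (SD 1.23, n = 4) and of −7.58 at PN98 (SD 1.87, n = 4). The difference of 1.25 was smaller than the SD at PN98 and did not pass (p = 0.371 and adjusted p = 0.371, exact permutation test). It was 0.78 without m106, 2.17 without m125 (exact permutation test, adjusted p = 0.0571) and 2.21 as a difference of medians (adjusted p = 0.314).

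For subunit 7A and subunit 8 the adjusted p was 0.0429 when any PN98 mouse was left out, and 0.0857 to 0.129 when a PN21 mouse was left out (exact permutation test). The ages stayed without overlap whichever mouse was left out. With 1 mouse fewer there are fewer splits and the groups are unequal. These p-values thus also depend on the design and do not measure how much single mice matter. Without a PN21 mouse the ratios differed by −2.43 to −2.28 for subunit 7A and −1.32 to −0.98 for subunit 8. With all mice these differences were −2.36 and −1.22. The smallest difference was that without m145 in both cases. The difference of medians in place of means gave 0.0857 for both. With m35 left out the ratios fell by 1.96 and 0.89 on the log2 scale.

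The changes of the ratios were compared with each other within mice. The ratio of subunit 7A fell by 1.14 more on the log2 scale than that of subunit 8 (exact permutation test, p = 0.0286), which did not pass the correction over the 3 comparisons (adjusted p = 0.0857). The change of subunit 6A differed from that of subunit 7A by 3.61 (exact permutation test, p = 0.0571, adjusted p = 0.0857) and from that of subunit 8 by 2.47 (exact permutation test, p = 0.143, adjusted p = 0.143). Without m125, again with fewer splits and unequal groups, the first difference was −1.22 and the second 4.87, each with an adjusted p of 0.0429 (exact permutation test).

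**Figure D3:**
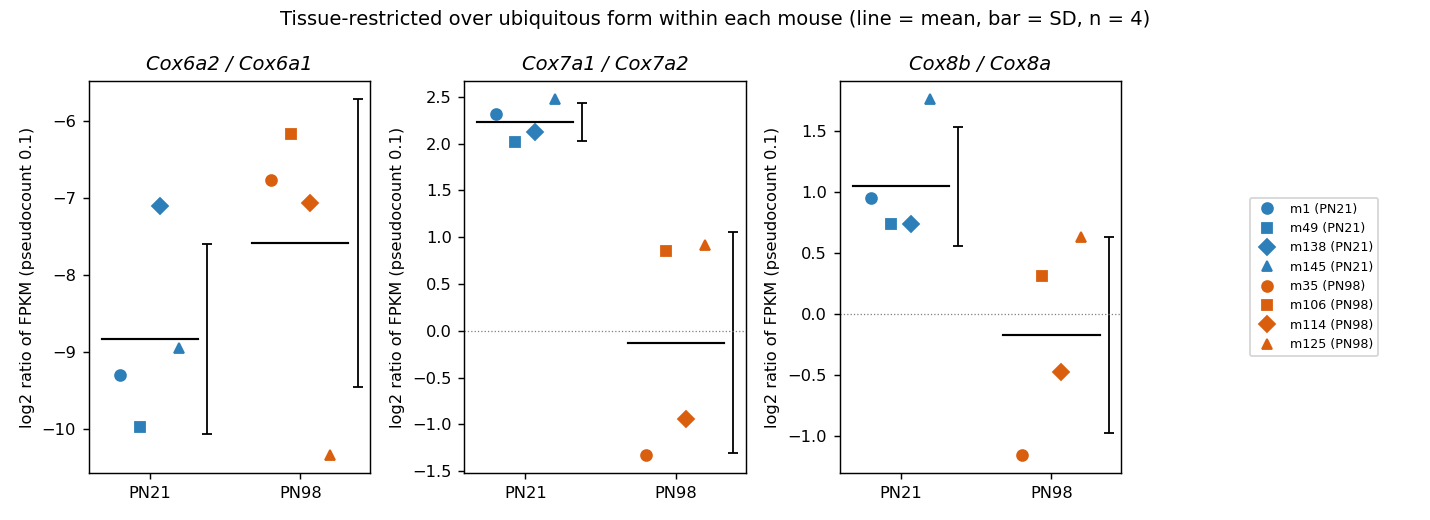
Log2 ratio of the restricted over the ubiquitous form (y axis) in each mouse, by age (x axis), with the mean as a line and the SD as a bar (n = 4). For subunits 7A and 8 all PN98 points lie below all PN21 points, and for subunit 6A the points overlap.

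The isoform genes were also set against the rest of the complex. The other nuclear subunits were represented by 8 genes, among them *Cox5a* and *Cox5b*, which encode subunits 5A and 5B, and *Ndufa4*, which was first assigned to complex I. The 8 also include *Cox7a2l*, by its name a relative of *Cox7a2* (log2 fold change −0.37, limma adjusted p = 0.168). All 8 were lower at PN98 in their means as deposited, 7 of 8 with scaling to nuclear genes, and 0 had an adjusted p under 0.05 in limma. Their median log2 fold change was −0.60, against −0.21 for all genes tested, and −0.33 and −0.39 with the scalings to nuclear genes and by median of ratios. The most abundant were *Cox6b1* (log2 fold change −0.72, limma adjusted p = 0.186), *Ndufa4* (−0.30, adjusted p = 0.556) and *Cox7b* (−0.81, adjusted p = 0.217).

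Within each mouse, every isoform gene was divided by the geometric mean of these 8 subunits, which is given as values without a test, since it was chosen after the values were seen. *Cox7a1* was above this mean by 0.99, 0.89, 0.90 and 1.22 on the log2 scale in PN21 mice m1, m49, m138 and m145. At PN98 it was at −2.12 in m35, −0.06 in m106, −1.61 in m114 and 0.17 in m125, below all PN21 mice. By contrast, the ubiquitous forms *Cox7a2* and *Cox8a* were higher relative to the other subunits at PN98 in each mouse. *Cox7a2* was at −1.32 to −1.13 at PN21 and −0.92 to −0.66 at PN98. *Cox8a* was at 0.50 to 0.73 at PN21 and 0.81 to 1.40 at PN98. The ages thus did not overlap for 1 gene that was lower and 2 genes that were higher, against 0.767% and 7.65% of all genes divided in the same way. The divisor itself was lower at PN98 on average (median log2 fold change of the 8 subunits −0.60). In their own levels *Cox7a2* and *Cox8a* changed by only −0.13 and −0.12. A lower divisor moves every gene upward, also in these shares. *Cox6a1* overlapped, at 1.0 to 1.45 at PN21 and 1.22 to 1.44 at PN98. *Cox8b* overlapped as well, at 1.29 to 2.26 at PN21 and −0.07 to 1.59 at PN98.

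**Figure D4:**
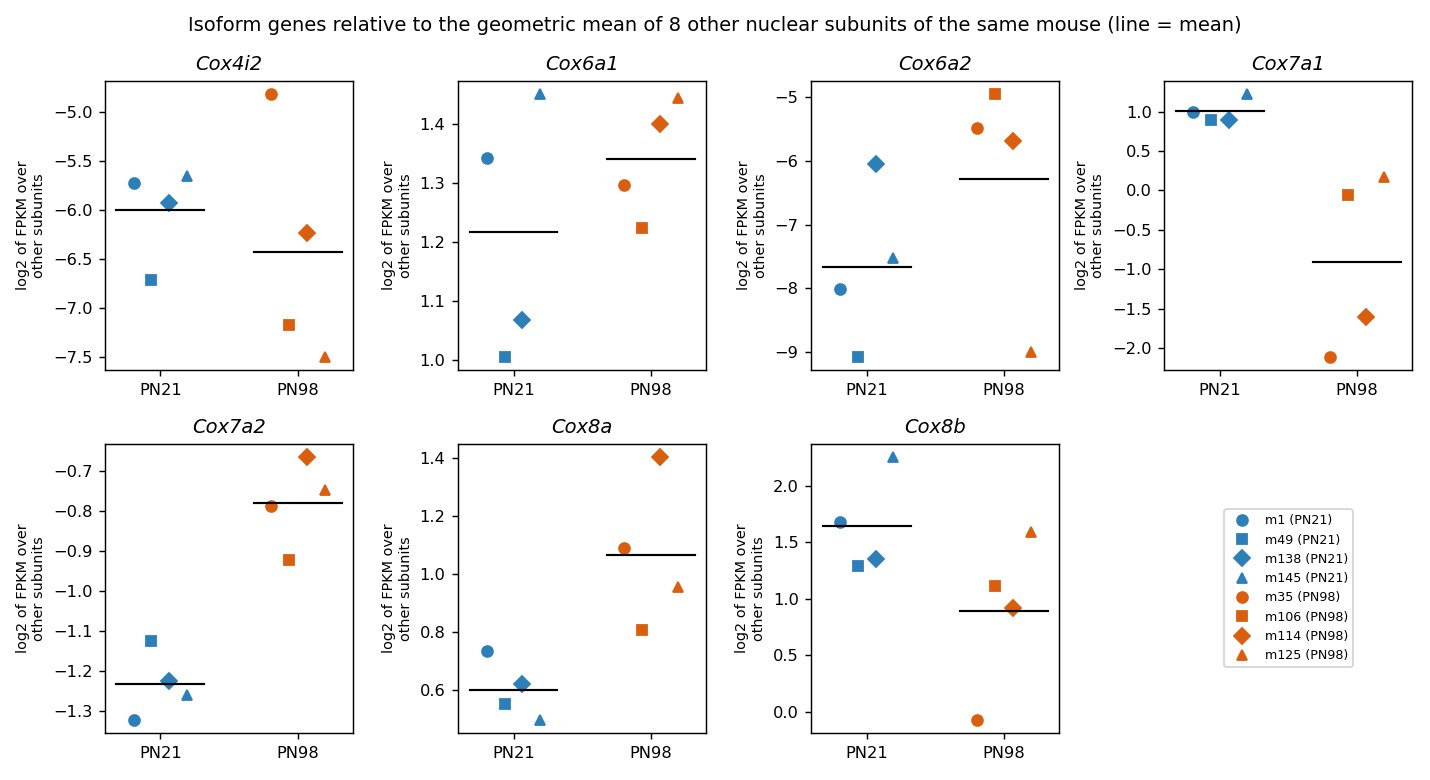
Log2 of the FPKM of each isoform gene over the geometric mean of 8 other nuclear subunits of the same mouse (y axis), by age (x axis), with 1 point per mouse and the mean as a line; the y axes differ between genes. *Cox7a1* is lower, and *Cox7a2* and *Cox8a* are higher, in all PN98 mice than in all PN21 mice.

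Of the testis forms, *Cox6b2* was lower at PN98 (log2 fold change −1.24, limma adjusted p = 0.0260), at 10.5 to 19.4 FPKM at PN21 and 4.55 to 8.01 FPKM at PN98. It did not pass with its highest transcript alone (−0.80, limma adjusted p = 0.528) or without m49, m138, m145, m106, m114 or m125. By contrast, *Cox7b2* and *Cox8c* were listed at 0 in all 8 mice. Of the subunits encoded by the mitochondrial genome, *mt-Co2* was at 17308 to 23563 FPKM at PN21 and 8685 to 30886 FPKM at PN98. *mt-Co1* and *mt-Co3* were listed at 0 in m106 and m125, against 6007 to 14187 FPKM in the other mice, and no fold change is given for them. Of 21 assembly factors, which insert copper and heme and bring the subunits together, 16 were lower in their means as deposited, but 11 with scaling to nuclear genes. *Cox10*, needed for heme A synthesis, passed the test as deposited (−0.96, limma adjusted p = 0.0353) but with neither scaling, nor without m1, m49, m138, m145, m106 or m114. The median over the assembly factors was −0.27 as deposited, −0.017 with scaling to nuclear genes and −0.066 with median of ratios scaling.

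Markers of the cell types in which the restricted forms are known were read in the same mice. Brown adipocyte markers had 11 of 15 tested genes lower at PN98, 0 with an adjusted p under 0.05 in limma, and a median log2 fold change of −0.59. With scaling to nuclear genes and with median of ratios scaling the medians were −0.32 and −0.37, and without m35 −0.20. With array weights 1 of these genes passed as higher and 3 as lower. In these settings *Lhx8*, a transcription factor gene, was called as higher (as deposited 0.91, limma adjusted p = 0.0594). *Elovl3*, a fatty acid elongase gene, had a log2 fold change of 1.81 (limma adjusted p = 0.351). Among the 11 lower genes, *Ucp1* had −2.81 (limma adjusted p = 0.149), *Esrrg* −0.85 (adjusted p = 0.0708) and *Dio2* −0.82 (adjusted p = 0.0800). *Ucp1*, the uncoupling protein of brown adipocytes, was at 544, 650, 586 and 559 FPKM in m1, m49, m138 and m145, and at 7.41, 278, 56.3 and 356 FPKM in m35, m106, m114 and m125. The PN98 mice thus stood in the same order for *Ucp1* as for the ratios of subunits 7A and 8, with m35 lowest, then m114, m106 and m125. This order was not particular to them, since it also held for the ubiquitous forms *Cox6a1* and *Cox7a2*, but not for *Cox8a*. The geometric mean of the 8 other nuclear subunits had it too, at 259, 345, 434 and 666 FPKM. *Cidea*, a lipid droplet protein of brown and beige adipocytes, was at 405 to 631 FPKM at PN21 and at 55.2, 721, 187 and 1064 FPKM in m35, m106, m114 and m125. Mice m106 and m125 were thus above all PN21 mice for *Cidea*, while their share of *Cox7a1* was below all PN21 mice. The summed level of the 16 listed brown markers was 1346 to 1551 FPKM at PN21 and 153 to 1944 FPKM at PN98, with *Zic1* at or near 0 in all mice. The part of brown adipocytes in the change of the ratios was not tested.

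Most skeletal muscle markers went the other way from *Cox7a1* and *Cox8b*. Of 17 tested genes 13 were higher and 4 lower at PN98, of which 3 and 1 passed at an adjusted p of 0.05 (7 and 1 with either scaling, 11 and 1 with array weights), and the median log2 fold change was 1.64. *Atp2a1*, the calcium pump of fast fibres, rose by 4.20 (limma adjusted p = 0.0405), *Actn3* by 3.62 (adjusted p = 0.0335) and *Tcap* by 3.35 (adjusted p = 0.0291), whereas the slow-fibre gene *Tnnt1* fell by 1.35 (adjusted p = 0.0308). None of the muscle genes passed as higher without the filter on low values, or when m1, m49, m145, m106 or m114 was left out, and *Tnnt1* did not pass with its highest transcript alone or without m49, m138, m145, m106, m114 or m125. Over all alternatives the median ran from 1.33 to 3.60. *Ckm*, muscle creatine kinase, was at 0.347, 7.79, 50.4 and 8.71 FPKM in m1, m49, m138 and m145, and at 135, 487, 173 and 69.8 FPKM in m35, m106, m114 and m125. The summed level of the 19 muscle genes with values was 75.7 to 537 FPKM at PN21 and 546 to 3537 FPKM at PN98. Beside *Tnnt1*, the lower genes were *Myl2* (−1.21, limma adjusted p = 0.212), *Myl3* (−1.02, adjusted p = 0.135) and *Tnnc1* (−0.02, adjusted p = 0.958). The slow-fibre myosin *Myh7* did not exceed 0.890 FPKM.

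For *Cox6a2*, the mice with most muscle RNA at each age, m138 and m106, were also the mice with the highest level. This was not so for every mouse, since m125 had 69.8 FPKM of *Ckm* and 1.30 FPKM of *Cox6a2*, whereas m145 had 8.71 FPKM of *Ckm* and 4.01 FPKM of *Cox6a2*. The part of muscle RNA in the level of *Cox6a2* was not tested.

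Mural cell markers (pericytes and smooth muscle) were read beside *Cox4i2*. Of 12 genes 11 were lower at PN98 as deposited and 9 with either scaling, 1 of them with an adjusted p under 0.05 (*Kcnj8*, −1.27, limma adjusted p = 0.0226), and the median was −0.56 as deposited and −0.34 and −0.38 with the scalings. *Kcnj8* did not pass without m1, m138, m145, m106, m114 or m125, and without m35 4 of the 12 genes passed, and 5 with array weights. Their summed level was 207 to 368 FPKM at PN21 and 111 to 473 FPKM at PN98. Of the sum in m35, the highest, 189.6 FPKM were *Acta2*. Without *Acta2* m35 was at 283 FPKM, within the PN21 range of 175 to 294 FPKM and above the other PN98 mice (103 to 187 FPKM). *Rgs5*, a pericyte gene, was at 39.8 to 74.0 FPKM at PN21 and 29.6 to 92.4 FPKM at PN98 (−0.09, limma adjusted p = 0.881). The part of mural cells in the level of *Cox4i2* was not tested.

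Of 10 genes of adipocytes in general, 9 had a higher mean at PN98. The adjusted p was under 0.05 for 3 of these (6 with either scaling), and the median log2 fold change was 0.93. *Cidec*, a lipid droplet protein, rose by 2.16 (limma adjusted p = 0.00220), *Adipoq* by 1.44 (adjusted p = 0.0112) and the lipase gene *Lipe* by 0.99 (adjusted p = 0.0422). *Cidec* and *Adipoq* passed under all alternatives, whereas *Lipe* passed in only 7 of 17 settings. *Adipoq*, encoding adiponectin, was at 817 to 1279 FPKM at PN21 and 2512 to 3653 FPKM at PN98. All PN98 mice were thus above all PN21 mice for *Adipoq* and below them for the ratio of *Cox7a1* to *Cox7a2*. Mouse m35 stood apart from the other PN98 mice in lymphocyte genes, whose sum was 795 FPKM in m35 and 16.1 to 154 FPKM in the others. The part of lymphocytes or adipocytes in the ratios was not tested.

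**Figure D5:**
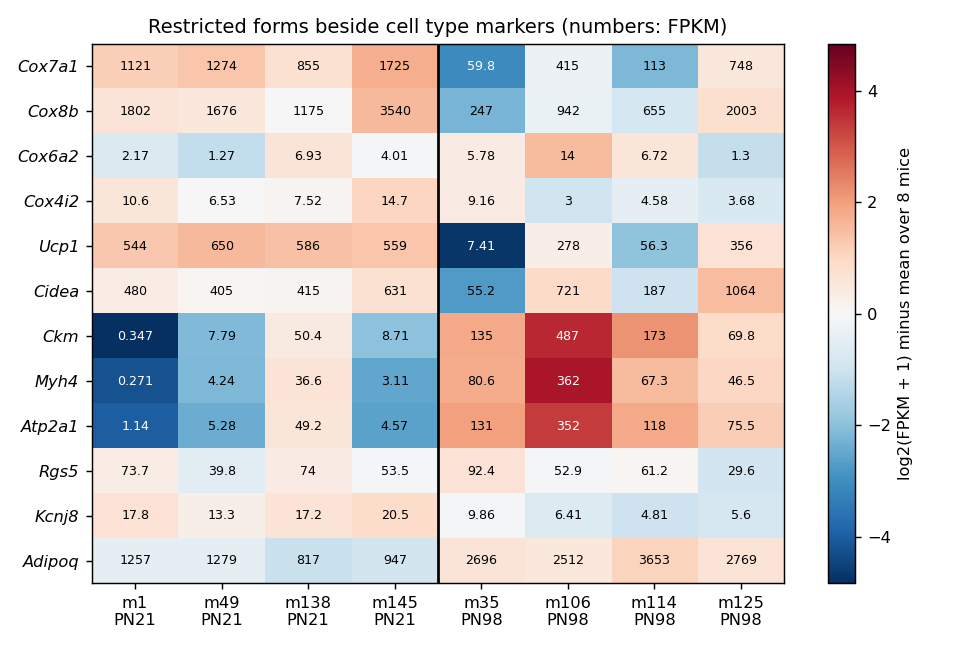
FPKM (numbers) of 4 restricted isoform genes and 8 marker genes in each of 8 mice (columns, PN21 left and PN98 right of the line), with colour for log2(FPKM + 1) minus the mean of the gene over the 8 mice. The rows of *Cox7a1*, *Cox8b* and *Ucp1* are lowest in m35 and m114, whereas *Ckm*, *Myh4* and *Atp2a1* are highest in m106.

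The genes whose log2(FPKM + 1) was most like that of each restricted form over the 8 mice were taken from 11000 genes with a mean of at least 5 FPKM. These are descriptions over 8 points that share the libraries and the age difference. Most like *Cox7a1* were *Acaa2* (Pearson's r = 0.987), *Cox5a* (0.985), *Suclg1* (0.984), *Gm11633* (0.975) and *Uqcrfs1* (0.975). *Acaa2* is an enzyme of fatty acid oxidation, *Suclg1* of the tricarboxylic acid cycle, and *Uqcrfs1* encodes the iron-sulfur subunit of complex III. Their log2 fold changes were smaller than the −2.48 of *Cox7a1*, at −1.15 for *Acaa2* and −1.02 for *Cox5a*.

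Most like *Cox8b* were *Uqcrh-ps2* (0.993), *Ndufb8* (0.979), *Mcrip2* (0.970), *Gm14248* (0.969) and *Sdhb* (0.969), of which *Ndufb8* and *Sdhb* encode subunits of complexes I and II. Most like *Cox6a2* was *Tpm2* (0.992), a tropomyosin of muscle, followed by *Kdm4b* (0.932), *Asb2* (0.926), *Sbf2* (0.913) and *Ampd1* (0.898), the muscle form of AMP deaminase. *Tpm2* was highest in m138 at PN21 and in m106 at PN98 (360 FPKM), the same mice in which *Cox6a2* was highest for their age. Most like *Cox4i2* were *Orai1* (0.981), *Npm3-ps1* (0.979), *Gm14650* (0.979), *Gm12901* (0.979) and *Bag5* (0.978), none of which is on the mural list.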

How the data were processed

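Poly(A) RNA libraries were made with a directional kit and sequenced in paired ends. The authors mapped reads to mm10 with STAR 2.3.0 and deposited FPKM per Ensembl transcript from Cufflinks 2.1.1. Of 91969 transcripts, 40426 had lost a decimal mark. A single reading was left for 40346, by the digits alone or with the deposited standard deviation, average and score (a log10 ratio). These statistics cover 10 samples and not only the 8 mice. All 5011 readings that could be compared with an intact deposited table were equal. That table's fold changes and p-values were not used. Genes with an unresolved transcript (79) were left out. FPKM were summed per gene (GENCODE vM21) and log2(FPKM + 1) was compared with limma 3.58.1 (R 4.3.3) for a mean of at least 1 FPKM. Transcripts were compared on log2(FPKM) if above 0 in all mice with a mean above 2 at either age. Ratios (pseudocount 0.1) were compared with exact permutation tests in Python 3.11.15. Scripts were tested on simulated data. P-values measure the spread between mice. All 7 analysed genes were described. Of other lists up to 4 genes with the largest changes among those passing, or the 3 most abundant, were named, with defining markers; the 5 most similar genes per restricted form were taken by Pearson's r. The members and lists were chosen with earlier results of these data known.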

Additional observations from a re-analysis of the deposited data

How the results depend on the processing

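No paired analysis was possible because the replicate numbers only name mice in the order of their labels and pair no PN21 mouse with a PN98 mouse. The number of genes with an adjusted p under 0.05 in limma was 843, and 540 with a mean of at least 5 FPKM, 4627 with array weights, and 200 to 3527 with 1 mouse left out, the highest without m35. For transcripts it was 310, and 532 with median of ratios scaling, 705 with pseudocount 1, 103 with the filter on zeros alone, and 46 to 1767 with 1 mouse left out, again highest without m35. The cause was not tested. With 1 mouse left out, the ratio of subunit 7A changed by −2.71 to −1.96 and that of subunit 8 by −1.49 to −0.89, and the difference between subunits 6A and 7A ran from 2.93 to 4.87 and that between 7A and 8 from −1.31 to −0.97. The difference of medians gave −2.26 for subunit 7A and −0.93 for subunit 8, each with an adjusted p of 0.0857 (exact permutation test). Reversed directions were found for *Cox7a2* (0.14 with scaling to nuclear genes, 0.083 with median of ratios scaling, −0.39 to 0.078 with 1 mouse left out) and *Cox8a* (0.15, 0.094 and −0.33 to 0.079), with like values for their transcripts (0.14, 0.083 and −0.39 to 0.079 for *Cox7a2*, and 0.15, 0.094 and −0.33 to 0.079 for *Cox8a*), and for the retained-intron transcript of *Cox6a1* (−0.54 to 0.049), in each case without m35. In these settings *Cox4i2*, *Cox6a1*, *Cox6a2*, *Cox7a1* and *Cox8b* kept their directions. The files give no counts, so what depth limits could not be computed.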

Other observations

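Lists that stand beside no result above gave the following values. All 7 endothelial genes were lower at PN98 as deposited (median log2 fold change −0.41), but 6 of 7 with scaling to nuclear genes, and 0 had an adjusted p under 0.05 in limma, or 1 without m35 (median −0.68). All 8 lymphocyte genes were lower (median −2.19, 0 with an adjusted p under 0.05), with m35 inside the PN21 range of summed FPKM. Without m35 all 8 passed (median −3.11), and with array weights 4 passed. All 4 tested epithelial genes were lower, 1 with an adjusted p under 0.05 (*Epcam*). With either scaling 2 were tested and 0 passed, and 0 passed with pseudocount 0.1, without the filter, with trend and robust fitting, with the highest transcript alone, or without m1, m49, m145, m106, m114 or m125. The summed level of the 6 listed genes was 2.33 to 28.0 FPKM at PN21 and 0.211 to 1.36 FPKM at PN98. Of 4 tested sex-linked genes 1 was higher and 3 were lower, 0 with an adjusted p under 0.05.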
